A study of Mus musculus with 16 samples.

Results

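The genes described here were almost silent in untreated mouse embryonic stem cells and were read at a low level in cells kept in 200 µM nickel. A gene was taken when its RPKM (reads per kilobase of transcript and by library depth, the authors' value) was under 0.3 in control cells on day 4 and on day 6. It also had to reach at least 0.3 RPKM, and at least 2 times the control of the same day, at 200 µM on both days. Predicted genes named Gm with a number, Rik clones, and the Hox, Fox and Pcdh genes were left out by symbol. This left 92 of 26239 genes, and 115 without the exclusion by symbol. The genes were thus chosen by their RPKM in control cells and at 200 µM, and those values are given as a description with no test. The comparisons at 100 and 150 µM did not enter the choice, but they use the same control values, which the choice held under 0.3.

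E14Tg2A is a mouse embryonic stem cell line, and the sample titles name no genetic change. For the exposure it was kept on serum medium with leukemia inhibitory factor (LIF), which holds such cells undifferentiated. Cells received no nickel, or 100, 150 or 200 µM NiCl2, a soluble nickel salt that was renewed after each passage. RNA was collected on days 4 and 6, with 2 libraries per group, which makes 8 groups and 16 libraries. The labels mark the replicates A and B without naming separate cultures, and the spread behind the p-values may therefore be technical. Each group has a single deposited RPKM with nothing per library, so no spread between replicates can be given for a level. Errors after a log2 fold change are the standard errors implied by the authors' p-value.

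Genes outside the program of a stem cell are held silent there in several ways. Polycomb complexes mark the CpG-rich promoters of many developmental regulators, and DNA methylation covers the promoters of many germline and tissue-specific genes. Nickel is a carcinogenic metal known to inhibit iron- and oxoglutarate-dependent dioxygenases, among them histone and DNA demethylases. The series title places the work in that field, as a question about the epigenetic repression of developmental genes under nickel.

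Library depth, recovered from the steps of low RPKM values in 2813 single-exon genes, lay between 34.2 and 76.7 megareads. The second library at 100 µM on day 4 was not resolved. At 150 µM on day 6, single reads in genes under 600 bases matched the step of 1 library nearly always, 57 against 2. The lower depth fitted in that group, 34.2 megareads, is therefore uncertain. Stem cell markers were high in every group, with 695 to 857 RPKM for Pou5f1 and 168 to 345 RPKM for Nanog. Fibroblast markers summed to 7.29 to 13.7 RPKM, and Lum and Fap were listed at 0 throughout. The blood marker Ptprc stayed at or under 0.0358 RPKM, whereas Cd68 held most of the blood marker sum.

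At the promoter, 58 of the 92 genes could be set beside a RefSeq window, which runs from 250 bases before the gene's start to 50 bases after it. A window was called CpG-rich with at least 50% GC and a ratio of observed to expected CpG of at least 0.6. This held for 18 of the 58 windows (31%), for 13% of 5568 windows of other genes near-silent in control cells, and for 44.2% of all 18895 windows. The other near-silent genes were not matched to the members for level, here or in the motif and position shares below. Of 8506 near-silent genes, members included, 3794 had a tested value at 200 µM on day 4. Among genes with a control RPKM of at least 1 on day 4 the share was 71.5%. Of the members left by a nickel floor of 0.5 RPKM in place of 0.3, 18.2% had a CpG-rich window. The regulators of transcription had 5 CpG-rich windows of 7, and the genes of germ cells and the early embryo had 1 of 8. Gsc and Tfap2e, which encode transcription factors, and Cacna1s and Abcb5, which encode membrane proteins and were called at the lower doses, show both kinds. Their windows are given from RefSeq on GRCm38.p6, on the strand of the gene and 5′ to 3′, with every CpG in capitals. They are chr12:104473187-104473486 (minus strand) for Gsc, chr4:126736220-126736519 (minus strand) for Tfap2e, chr1:136052561-136052860 (plus strand) for Cacna1s and chr12:118966372-118966671 (minus strand) for Abcb5.
Gsc: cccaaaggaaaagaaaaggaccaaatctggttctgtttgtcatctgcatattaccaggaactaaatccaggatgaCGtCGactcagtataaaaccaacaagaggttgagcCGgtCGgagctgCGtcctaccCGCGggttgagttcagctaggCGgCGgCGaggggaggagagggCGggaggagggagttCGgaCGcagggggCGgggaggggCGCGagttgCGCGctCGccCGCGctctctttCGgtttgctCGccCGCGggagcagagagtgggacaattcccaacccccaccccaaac
Tfap2e: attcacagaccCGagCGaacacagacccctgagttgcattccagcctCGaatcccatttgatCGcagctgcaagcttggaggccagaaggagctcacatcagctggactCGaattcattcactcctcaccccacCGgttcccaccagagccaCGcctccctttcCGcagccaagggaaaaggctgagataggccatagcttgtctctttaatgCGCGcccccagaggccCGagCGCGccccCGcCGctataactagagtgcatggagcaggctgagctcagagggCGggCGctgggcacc
Cacna1s: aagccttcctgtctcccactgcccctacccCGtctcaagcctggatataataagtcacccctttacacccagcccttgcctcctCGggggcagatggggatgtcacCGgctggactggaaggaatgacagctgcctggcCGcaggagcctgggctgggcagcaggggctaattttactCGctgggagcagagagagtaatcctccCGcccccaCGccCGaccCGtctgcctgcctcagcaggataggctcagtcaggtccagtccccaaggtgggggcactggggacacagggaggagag
Abcb5: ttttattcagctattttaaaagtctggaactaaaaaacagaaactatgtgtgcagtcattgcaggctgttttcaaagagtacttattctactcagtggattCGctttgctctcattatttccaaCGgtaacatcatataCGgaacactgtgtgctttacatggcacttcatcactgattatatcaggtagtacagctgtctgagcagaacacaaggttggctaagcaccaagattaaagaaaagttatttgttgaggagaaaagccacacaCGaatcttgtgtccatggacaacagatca
The Gsc window holds 25 CpG, a ratio of 0.934, and the Tfap2e window 17, a ratio of 0.635. The Cacna1s window holds 9 CpG, a ratio of 0.303, and the Abcb5 window 4, a ratio of 0.363.

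**Figure D1:**
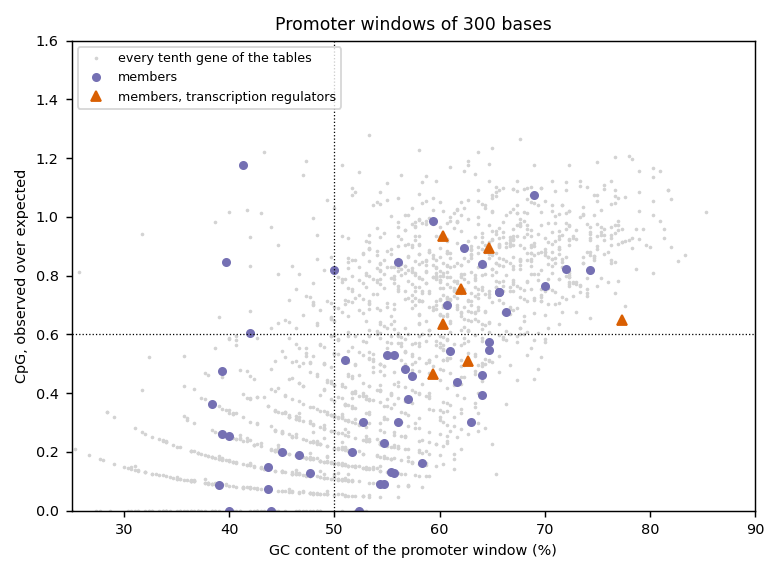
GC content (%) of the 300-base promoter window against the ratio of observed to expected CpG, with members as large symbols and a sample of other genes as grey dots. Dotted lines mark 50% GC and a ratio of 0.6; 5 of the 7 regulators of transcription and 18 of all 58 member windows lie in the upper right field.

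Short letter motifs were counted in the same windows on both strands. GGGCGG, the core of the GC box, was in 25 member windows (43.1%), against 19.7% of other near-silent genes and 45.3% of all windows. TATAAA, the TATA box, was in 8 member windows (13.8%), against 23.8% and 13.1%. ACGTG, the core bound by bHLH-PAS factors such as HIF, was in 8 member windows (13.8%), against 13.8% and 21.1%. The CpG-rich members had a median of 0.41 RPKM at 200 µM on day 4 and 0.497 RPKM on day 6, and the other 40 had 0.551 and 0.57 RPKM. At 150 µM, 1 of the 18 CpG-rich members was called higher on day 4 and 0 on day 6, against 6 and 5 of the other 40. Of all genes tested, 3.44% and 2.36% were called higher there on days 4 and 6.

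The genes stayed weak after they had crossed the threshold. Their median RPKM on day 4 was 0.139 in control cells and 0.235, 0.348 and 0.51 with rising dose. On day 6 it was 0.155, 0.314, 0.311 and 0.554 RPKM in the same order. Of all genes of the tables, 50.7% on day 4 and 51% on day 6 lay below the members' median at 200 µM, where only 9 members on day 4 and 13 on day 6 reached 1 RPKM. A low level in all cells and a high level in few cells cannot be told apart in bulk RNA. Leaving out small RNA and histone genes, the members had between 29 and 1459 reads at 200 µM on day 4 and between 50 and 1102 on day 6, over both libraries. Between the days the level at 200 µM had a median day 6 to day 4 ratio of 1.13, with 89 of 92 genes within a factor of 2. The choice set the same floor on both days, so nothing is read from these ratios. The extremes were Xist at 0.571 and Mir7666 at 2.53.

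**Figure D2:**
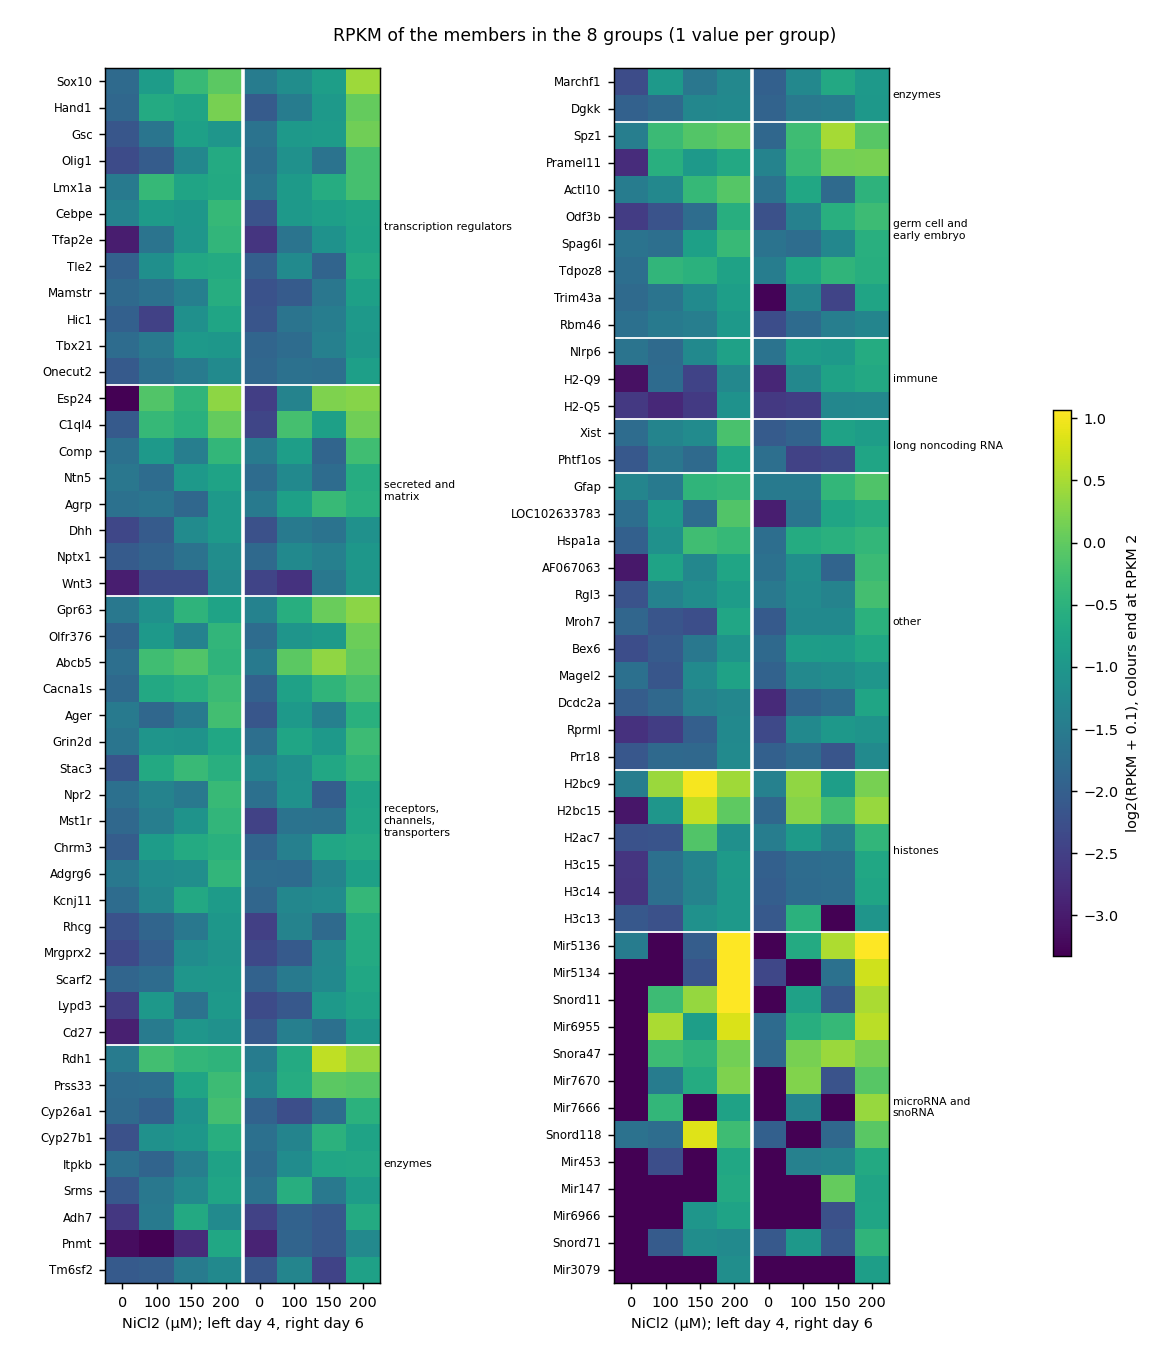
RPKM of the genes (rows, by class) in control cells and at 100, 150 and 200 µM NiCl2 on day 4 and day 6 (columns), drawn as log2(RPKM + 0.1) with 1 authors' value per group. The 200 µM columns are at least 0.3 RPKM by choice, and the small RNA genes in the last block are at or near 0 in control cells.

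At the doses that did not enter the choice, few members passed the authors' test. A gene was called higher when its adjusted p in the authors' deposited table was under 0.05. At 100 µM, 1 member (1.09%) was called higher on day 4 and 5 (5.43%) on day 6, beside 0.576% and 1.62% of all genes tested. At 150 µM the calls were 9 (9.78%) on day 4 and 6 (6.52%) on day 6, beside 3.44% and 2.36% of all genes tested. Genes near-silent in control cells, the members included, were called higher in 0.0824% and 0.583% of cases at 100 and 150 µM on day 4, and in 0.167% and 0.742% on day 6. At 200 µM, the contrast that chose the genes, 15 members (16.3%) were called on day 4 and 42 (45.7%) on day 6, where 4.14% and 4.99% of all genes tested and 0.87% and 2.37% of near-silent genes were. Calls at 200 µM are named below as the authors' own, and nothing is read from them, since that contrast chose the genes. No member was called lower in any comparison, while at an unadjusted p under 0.05 12, 24 and 47 members passed on day 4 and 21, 24 and 62 on day 6 with rising dose. The authors' tables carry an adjusted p of 1 for 20 and 21 members at 100 and 150 µM on day 4, for 28 and 18 on day 6, and for 14 and 10 at 200 µM on days 4 and 6.

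By size, the median log2 fold change of the members in the authors' deposited tables was 0.86 at 100 µM and 1.49 at 150 µM on day 4, and 1.01 and 1.34 on day 6. Over all genes tested the medians lay between -0.03 and 0.00. The near-silent genes outside the members had medians of -0.06 and 0.09 on day 4, and -0.005 and -0.40 on day 6. With members at 0 counted at their bound of 3 reads the medians were 0.65, 1.33, 0.94 and 1.27. The median implied standard error of a single member's log2 fold change was 1.14 and 0.91 on day 4 and 0.74 and 1.16 on day 6. In level, 73 and 84 of the 92 genes lay above the control at 100 and 150 µM on day 4, and 82 and 81 on day 6. The choice took low control values, which favours such counts, and nothing is read from them. Over the 4 comparisons at 100 and 150 µM, 14 members (15.2%) were called at least once, beside 4.71% of all genes tested there. With the 200 µM comparisons, which chose the genes, 48 members were called at least once and 7 in at least 3 of the 6, beside 7.96% and 2.16% of all genes tested, and nothing is read from those counts. Abcb5, Cacna1s, Spz1, Xist, Tfap2e and Hspa1a were among the 7.

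**Figure D3:**
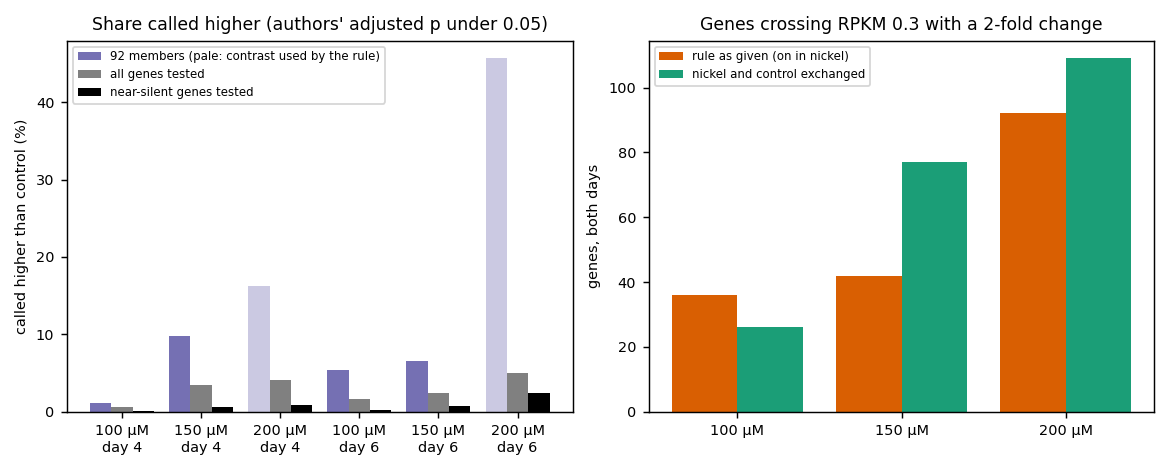
Left, the share (%) of the 92 members, of all genes tested and of near-silent genes tested that was called higher in each comparison, with the 200 µM bars of the members pale because that contrast chose them. Right, the number of genes that meet the same rule at each dose on both days (36, 42 and 92) and with nickel and control exchanged (26, 77 and 109).

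The same rule was read with the groups exchanged, for genes silent in nickel and present in control cells. At 200 µM 109 genes met it, against the 92 members. At 150 µM the counts were 77 off and 42 on, and at 100 µM 26 off and 36 on. On day 4 alone 354 genes went off and 259 on at 200 µM, and on day 6 alone 246 and 285. Of the 109, which the 200 µM contrast chose as it chose the members, the authors' deposited tables call 40 lower on day 4 and 62 on day 6, where 3.77% and 4.48% of all genes tested were, and nothing is read from these calls. Over both days, more genes crossed the threshold downward than upward at 150 and 200 µM.

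Doses between were read from the same group values. At 150 µM the level was above that at 100 µM in 64 members (69.6%) on day 4 and in 58 (63%) on day 6. The near-silent genes outside the members with a mean of at least 0.1 RPKM gave 53.2% and 52.8%. Counting only an excess of at least 1.2 times, the shares were 60.9% of members and 39.1% of those other genes on day 4, and 45.7% and 42.5% on day 6. At 100 µM 27 genes were already at 0.3 RPKM or more on both days, among them Sox10, Abcb5, Cacna1s, Lmx1a and Spz1. A further 15, with Hand1, Gsc, Tfap2e and Xist, were there at 150 but not at 100 µM. Under 0.3 RPKM at both lower doses on both days were 13 genes, among them Wnt3, Onecut2, Mamstr, Pnmt and Dcdc2a. Levels lay higher at each dose than at the one before on both days in 13 genes, with Sox10, Cacna1s, Chrm3, Tfap2e and Mrgprx2 among them. Snord118, Cyp26a1 and Spag6l lay below the control at 100 µM on both days, and no gene did at 150 µM.

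**Figure D4:**
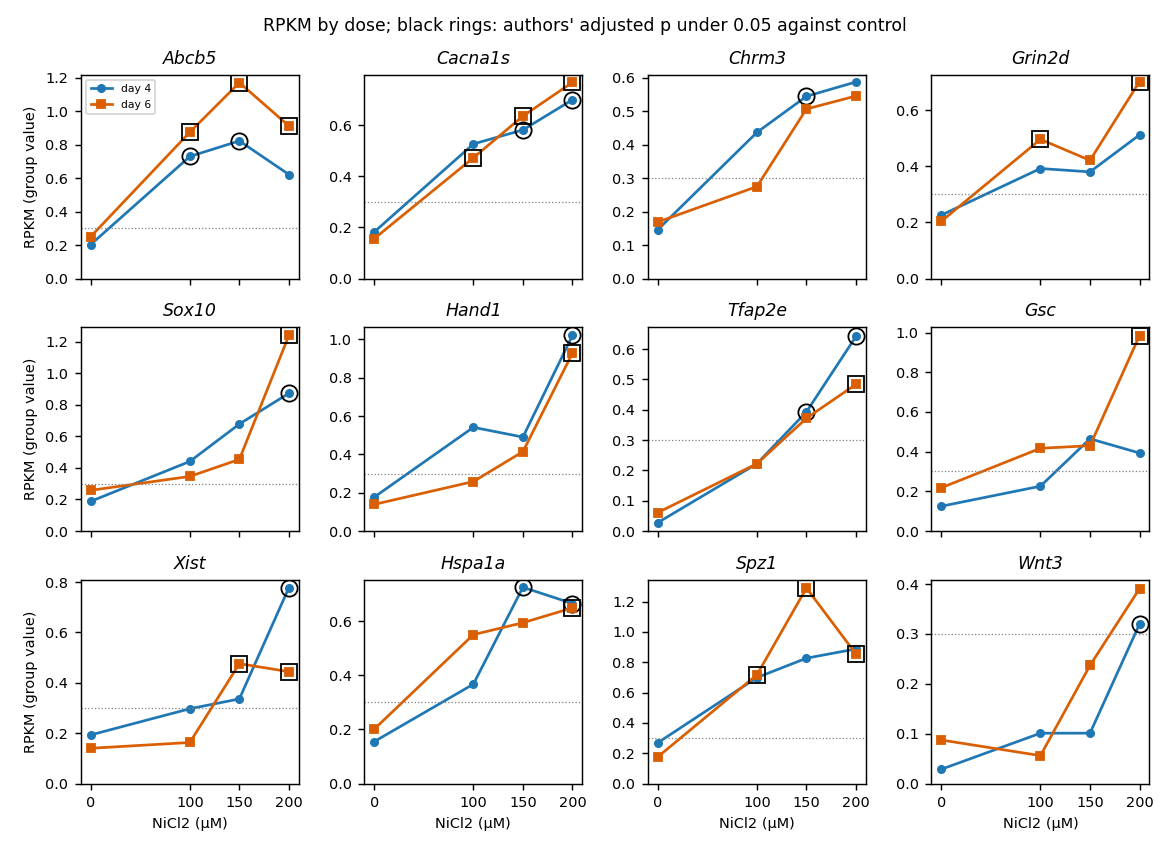
RPKM (1 value per group) of 12 members against NiCl2 dose (µM) on day 4 (circles) and day 6 (squares), with black rings where the authors' adjusted p against the control is under 0.05 and a dotted line at 0.3 RPKM. Abcb5 and Spz1 peak at 150 µM on day 6, at 1.17 and 1.29 RPKM, whereas Sox10, Hand1, Gsc and Wnt3 have their highest day 6 value at 200 µM. The control and 200 µM values chose the genes.

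Among the 12 regulators of transcription, 1, Tfap2e, was called at 100 or 150 µM, where 4.71% of all genes tested were. Tfap2e, of the AP-2 family, had 0.0277, 0.222, 0.393 and 0.642 RPKM on day 4 without nickel and then with rising dose, and 0.0609, 0.222, 0.372 and 0.484 RPKM on day 6. It was higher at 150 µM on day 4 by 3.82 ± 1.26 on the log2 scale (adjusted p = 0.0346, the authors' deposited table). On day 6 it was not called at that dose. The level lay higher with each dose on both days, though its control and 200 µM values entered the choice. The control value rests on 5 and 16 reads.

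Sox10, a neural crest and oligodendrocyte factor, had 0.188, 0.441, 0.678 and 0.873 RPKM on day 4 with rising dose and 0.258, 0.346, 0.454 and 1.24 RPKM on day 6. The authors' deposited tables call it higher at 200 µM on both days. Hand1, a factor of heart and trophoblast, had 0.177, 0.541, 0.49 and 1.02 RPKM on day 4 and 0.139, 0.258, 0.414 and 0.928 RPKM on day 6. Both genes had their highest value at 200 µM on both days. Among all members, 71 on day 4 and 76 on day 6 were highest at that dose. The choice took low control values and set a floor at 200 µM, so nothing is read from these peaks. The trophoblast marker list with Hand1 summed to 33 RPKM in control cells and 30.5 RPKM at 200 µM on day 4, and to 28.3 and 34.5 RPKM on day 6. Of its 15 genes, the authors' deposited tables call 2 higher and 1 lower at 200 µM on day 4, and 2 and 2 on day 6. Hand1, which that contrast chose, is counted among the higher genes. Of all genes tested, 4.14% and 4.99% were higher there on days 4 and 6, and 3.77% and 4.48% lower. Most of the sum was Tfap2c, at 19.8 and 17.9 RPKM in control cells and at 200 µM on day 4. In the same groups Krt8 had 2.15 and 3.95 RPKM, Krt7 1.37 and 0.239 RPKM, and Gata2 1.47 and 0.628 RPKM. Prl3d1 and Tpbpa were listed at 0 throughout. The part of such cells in the Hand1 value was not tested.

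Gsc, the homeobox factor of the gastrula organizer, had 0.125, 0.226, 0.465 and 0.393 RPKM on day 4 and 0.218, 0.417, 0.43 and 0.985 RPKM on day 6, where it was called at 200 µM in the authors' deposited table. Its window in the RefSeq sequences above is the most CpG-rich of the 4. Lmx1a, of midbrain dopamine neurons, and Olig1, of oligodendrocytes, had 0.755 and 0.751 RPKM at 200 µM on day 6 from controls of 0.224 and 0.199. Both were called on day 6 in the authors' deposited table. Onecut2, a factor of liver and neurons, was called on both days at 200 µM although its level reached only 0.331 and 0.459 RPKM. Tle2, a co-repressor of the Groucho family, and Mamstr, a MEF2 coactivator, were called at 200 µM on day 6. Cebpe of granulocytes, Tbx21 of T helper cells and Hic1, a zinc finger repressor, were not called anywhere and reached 0.672, 0.4 and 0.499 RPKM at 200 µM on day 4.

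A list of 193 developmental transcription factors, of which 134 were near-silent, holds 8 of these genes. By the authors' deposited tables, the list had 0, 7 and 13 higher genes on day 4 with rising dose, and 0, 4 and 3 lower genes. On day 6 the higher genes numbered 3, 3 and 30 and the lower genes 3, 4 and 9. Of all genes tested, 0.576%, 3.44% and 4.14% were higher on day 4 with rising dose, and 1.62%, 2.36% and 4.99% on day 6. At 200 µM 3.77% and 4.48% of all genes tested were lower on days 4 and 6. The median log2 fold change of the list at 200 µM was 0.52 on day 4 and 0.86 on day 6. The 200 µM contrast chose the 8 members, which are counted in the list. Nothing is therefore read from its counts and medians at that dose.

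Receptors, channels and transporters were the largest class, and 6 of its 18 genes were called at 100 or 150 µM, beside 4.71% of all genes tested. Abcb5, an ABC efflux transporter, had 0.203, 0.729, 0.822 and 0.621 RPKM with rising dose on day 4 and 0.25, 0.874, 1.17 and 0.911 RPKM on day 6. At 100 µM it was higher by 1.89 ± 0.54 (adjusted p = 0.0449) on day 4 and 1.81 ± 0.35 (adjusted p = 4.92e-05) on day 6, and at 150 µM by 2.06 ± 0.49 (adjusted p = 0.000808) and 2.32 ± 0.45 (adjusted p = 2.56e-05), from the authors' deposited tables. Abcb5 was the only member called at 100 µM on both days, and its value at 200 µM was below that at 150 µM on both days.

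Cacna1s, the pore subunit of the calcium channel of skeletal muscle, had 0.182, 0.526, 0.581 and 0.699 RPKM on day 4 and 0.156, 0.472, 0.635 and 0.767 RPKM on day 6. In the authors' deposited tables it was higher at 150 µM by 1.71 ± 0.46 (adjusted p = 0.00582) on day 4 and 2.12 ± 0.45 (adjusted p = 0.000179) on day 6. At 100 µM it was higher on day 6 by 1.61 ± 0.37 (adjusted p = 0.00131, the authors' deposited table), and on day 4 its adjusted p was 0.151. The level lay higher at each dose than at the one before on both days. Stac3, which serves the same muscle channel, had 0.121 and 0.685 RPKM in control cells and at 150 µM on day 4 and was called there (2.53 ± 0.86, adjusted p = 0.0439, the authors' deposited table). On day 6 it had 0.287 and 0.524 RPKM, with an adjusted p of 0.632 in the authors' deposited table. The list of 45 structural muscle genes, which holds no member, had 3 higher and 2 lower genes at 150 µM on day 4 and 1 and 0 on day 6. At that dose 3.44% and 2.36% of all genes tested were higher on days 4 and 6.

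Receptors of neurons were among those called. Grin2d, an NMDA receptor subunit, had 0.204, 0.496, 0.421 and 0.702 RPKM on day 6 and was higher at 100 µM on that day by 1.29 ± 0.41 (adjusted p = 0.0441, the authors' deposited table). On day 4 its adjusted p at 100 µM was 0.814 in the authors' deposited table. Chrm3, the M3 muscarinic receptor, was called at 150 µM on day 4 (1.94 ± 0.63, adjusted p = 0.0291, the authors' deposited table). On day 6 its adjusted p at 150 µM was 0.151 in the authors' deposited table. Of 108 neuronal channel and synapse genes, 3 were higher at 150 µM on day 4 and 4 on day 6, with 1 lower on each day. The higher share over all genes tested was 3.44% and 2.36% there. The neural marker list, which holds the member Gfap, summed to 44 RPKM in control cells and 35.2 RPKM at 200 µM on day 4, and to 54 and 40.6 RPKM on day 6. Of its 12 genes, the authors' deposited tables call 1 higher and 1 lower at 200 µM on day 4, and 2 and 1 on day 6. Gfap, which that contrast chose, is counted among the higher genes on day 6. Of all genes tested, 4.14% and 4.99% were higher there on days 4 and 6, and 3.77% and 4.48% lower. Most of the sum was Tubb3, at 29.6 and 24.8 RPKM in control cells and at 200 µM on day 4. In the same groups Neurod1 had 9.81 and 4.41 RPKM and Map2 1.54 and 1.33 RPKM. Pax6 had 0.585 and 1.48 RPKM there, and Olig2 0 and 0.0532 RPKM. The part of such cells in the values of the neuronal receptors and Gfap was not tested.

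The following genes of this class were not called below 200 µM. Mst1r, the RON receptor tyrosine kinase, and Adgrg6, an adhesion G protein-coupled receptor, were called on both days there. Gpr63, an orphan receptor, reached 1.13 RPKM on day 6 from a control of 0.286, and Olfr376, an odorant receptor, reached 0.959 RPKM from 0.192. Kcnj11, the pore of the ATP-sensitive potassium channel, Rhcg, an ammonium transporter, Mrgprx2, a receptor of the Mrgpr family, Lypd3, a surface protein of epithelia, and Scarf2, a scavenger receptor, were called on day 6. Ager, the receptor for advanced glycation end products, Npr2, a natriuretic peptide receptor, and Cd27, a lymphocyte receptor of the TNF receptor family, were not called and had 0.734, 0.675 and 0.365 RPKM on day 4 at 200 µM.

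Of the 8 secreted and matrix genes, none was called at 100 or 150 µM, where 4.71% of all genes tested were. Esp24, an exocrine gland peptide, was listed at 0 in control cells on day 4 and had 0.817, 0.63 and 1.15 RPKM with rising dose. On day 6 it had 0.0752, 0.288, 1.07 and 1.11 RPKM. Wnt3, a ligand that starts primitive streak formation, had 0.0286, 0.101, 0.101 and 0.32 RPKM on day 4 and 0.0873, 0.056, 0.237 and 0.391 RPKM on day 6. The day 4 change of Wnt3 was called in the authors' deposited table and the day 6 change, to a higher level, was not. Dhh, a hedgehog ligand, was called on both days, and C1ql4, of the C1q family, and Comp, a cartilage protein, on day 6. Ntn5, a netrin, Agrp, an appetite peptide, and Nptx1, a synaptic pentraxin, were not called and had 0.484, 0.422 and 0.347 RPKM at 200 µM on day 4. Among 69 signalling ligands of the list, 7 were higher and 3 lower at 200 µM on each day. Dhh and Wnt3, which that contrast chose, are counted in the list. Of all genes tested, 4.14% and 4.99% were higher there on days 4 and 6, and 3.77% and 4.48% lower.

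Enzymes numbered 11, and Rdh1 and Adh7 were the 2 called at 100 or 150 µM, beside 4.71% of all genes tested. Rdh1, a retinol dehydrogenase, had 0.259, 0.545, 1.47 and 1.18 RPKM on day 6 and was higher at 150 µM by 2.62 ± 0.53 (adjusted p = 8.26e-05, the authors' deposited table). On day 4 it had 0.254, 0.739, 0.647 and 0.624 RPKM and was not called. Adh7, an alcohol dehydrogenase that also oxidizes retinol, was called at 150 µM on day 4 (3.12 ± 0.91, adjusted p = 0.0116, the authors' deposited table) and had 0.0633, 0.246, 0.532 and 0.329 RPKM. On day 6 Adh7 had 0.0817, 0.16, 0.134 and 0.541 RPKM, and its adjusted p at 150 µM was 0.889 in the authors' deposited table. Cyp26a1, which breaks down retinoic acid, was not called and had 0.75 RPKM at 200 µM on day 4. Cyp27b1, which activates vitamin D, and Pnmt, which makes adrenaline, were called at 200 µM on day 4. Itpkb and Dgkk, kinases of inositol phosphate and of diacylglycerol, were called at 200 µM on day 6. Prss33, a serine protease, Srms, a tyrosine kinase, Tm6sf2, of lipid export from the liver, and Marchf1, a ubiquitin ligase of MHC class II, were not called and had 0.709, 0.498, 0.323 and 0.314 RPKM at 200 µM on day 4.

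Genes of germ cells and the early embryo numbered 8. Spz1 and Trim43a were the 2 called at 100 or 150 µM, beside 4.71% of all genes tested. Spz1, a bHLH zip factor of testis, had 0.269, 0.699, 0.827 and 0.888 RPKM on day 4 and 0.176, 0.717, 1.29 and 0.854 RPKM on day 6. It was higher on day 6 at 100 µM by 2.04 ± 0.65 (adjusted p = 0.0476) and at 150 µM by 2.98 ± 0.72 (adjusted p = 0.00184) in the authors' deposited tables. On day 4 Spz1 was not called at either dose. Trim43a, of a family read in early cleavage embryos, rests on 1 control read on day 6 and had 0.00356, 0.298, 0.0867 and 0.49 RPKM. Its adjusted p at 100 µM on that day was 0.0115 in the authors' deposited table. On day 4 Trim43a had 0.185, 0.223, 0.327 and 0.453 RPKM, and its adjusted p at 100 µM was 0.991 in the authors' deposited table. Trim43a, Tdpoz8 and Pramel11 have near-identical copies that can share reads, so their values are uncertain. Odf3b and Pramel11 were called at 200 µM on day 6. Actl10, Spag6l, Tdpoz8 and Rbm46 were not called and had 0.839, 0.68, 0.48 and 0.418 RPKM at 200 µM on day 4. The list of 21 genes of the 2-cell embryo state, which holds no member, had 15 higher at 100 and at 150 µM on both days and 9 and 11 at 200 µM on days 4 and 6. Of all genes tested, 0.576%, 3.44% and 4.14% were higher on day 4 with rising dose, and 1.62%, 2.36% and 4.99% on day 6. The summed level of the 2-cell list went from 50 RPKM in control cells to 114 and 154 RPKM at 200 µM on days 4 and 6. Its part in the values of the 8 genes was not tested. The list of 62 germline and meiosis genes, also without a member, had 3 higher and 9 lower genes at 200 µM on day 4 and 5 and 7 on day 6. At that dose 3.77% and 4.48% of all genes tested were lower on days 4 and 6.

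Xist, the long noncoding RNA that silences an X chromosome in female cells, lies at chrX:103460373-103483233 on the minus strand. It had 0.193, 0.297, 0.336 and 0.778 RPKM on day 4 and 0.14, 0.163, 0.476 and 0.444 RPKM on day 6. At 150 µM it was higher on day 6 by 1.93 ± 0.41 (adjusted p = 0.000186, the authors' deposited table), and on day 4 it was not called at that dose. At 200 µM it had 1459 and 1102 reads on days 4 and 6, the most of any member. Tsix, which overlaps it on the opposite strand, went from 1.59 to 4.03 RPKM between control and 200 µM on day 4 and from 1.93 to 2.85 RPKM on day 6. The library kit marks strand, but whether the counting used strand is not given in the sources used here, so both genes are uncertain. Phtf1os, the other long noncoding member, was not called and had 0.508 and 0.496 RPKM at 200 µM.

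Hspa1a, the inducible HSP70 chaperone, had 0.155, 0.367, 0.725 and 0.665 RPKM on day 4 and 0.201, 0.55, 0.594 and 0.649 RPKM on day 6. In the authors' deposited table it was higher at 150 µM on day 4 by 2.27 ± 0.62 (adjusted p = 0.00571), and on day 6 it was not called at that dose. Gfap, an intermediate filament of astrocytes, had 0.298, 0.247, 0.629 and 0.659 RPKM on day 4 and 0.246, 0.248, 0.654 and 0.812 RPKM on day 6, and was called at 200 µM on day 6. Gfap lay below its control at 100 µM on day 4. LOC102633783, Mroh7 and Dcdc2a were called at 200 µM on day 6 too. AF067063, Rgl3, Bex6, Magel2, Rprml and Prr18 were not called anywhere and had between 0.324 and 0.5 RPKM at 200 µM on day 4. Immune genes numbered 3. H2-Q9, a class Ib MHC gene, was called at 200 µM on day 6 together with Nlrp6, an inflammasome sensor, and H2-Q5 was not called anywhere. H2-Q7, which overlaps H2-Q9 on the same strand, went from 1 to 3.31 RPKM on that day.

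Histone genes were 6 in number, and H2bc15 alone was called, at 150 µM on day 4, where 3.44% of all genes tested were. It had 0.0205, 0.395, 1.48 and 0.892 RPKM on day 4, from 1 control read, and 0.177, 1.11, 0.746 and 1.21 RPKM on day 6. H3c13, H3c14 and H3c15 lie together at chr3:96238479-96269155, and H3c14 and H3c15 had 0.418 and 0.427 RPKM at 200 µM on day 4. Histone genes of a type share most of their sequence, so reads can be split between copies and their values are uncertain. At 150 µM on day 6, where single reads in genes under 600 bases matched nearly always 1 library, the histone genes had between 0 and 34 reads.

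The 13 small RNA genes, 9 microRNA and 4 snoRNA, were not called in any comparison, while 7.96% of all genes tested were called higher at least once. In control cells they had at most 3 reads on each day, and at 200 µM 7 of them had under 10. With so few reads nothing is read from the lack of calls. Mir5136 had 0.258, 0, 0.146 and 4.72 RPKM on day 4 and 0, 0.543, 1.35 and 6.31 RPKM on day 6. Mir5134 had 0, 0, 0.121 and 2.3 RPKM on day 4 and 0.0905, 0, 0.21 and 1.59 RPKM on day 6. These were the highest RPKM of all members, but they are few reads over short genes: summed over 4 control and 4 libraries at 200 µM, 2 against 93 to 115 for Mir5136 and 1 against 33 to 39 for Mir5134. Snord11 had 0 against 24 to 26 reads and Mir6955 2 against 25 to 30. In the least counted, Snord71, there were 1 and 7 to 8 reads.

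Of the 13 small RNA genes, 10 lie inside another gene on the same strand, whose longer transcripts can give reads there. Mir5136 lies in 5730408K05Rik, which went from 11.4 to 26.1 RPKM on day 4 and from 15.5 to 27.2 RPKM on day 6. Its adjusted p was 0.000561 and 0.00412 in the authors' deposited tables. Mir7670 lies in Ubn2, which went from 3.54 to 5.38 and from 4.21 to 6.01 RPKM. In contrast, Mir5134 lies in Ccnf, at 98.6 and 105 RPKM on day 4, and Snord11 in Nop58, at 189 and 191 RPKM, and neither host was called at 200 µM. The kit selects polyadenylated RNA, so these values are not levels of mature microRNA. RefSeq gave mature sequences for 7 of the 9 microRNA members, 10 sequences with 10 different seeds. Those of the 3 with most reads are given 5′ to 3′ with the seed, bases 2 to 8, in capitals.
mmu-miR-5136: aUAUGCGAgggaacuacugg
mmu-miR-5134-3p: aCGGGUGGcccucuuucugcag
mmu-miR-6955-5p: aGGGCCUCaggacucaggagguga
mmu-miR-6955-3p: aCACCUGUcuccuuugcccaca

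**Figure D5:**
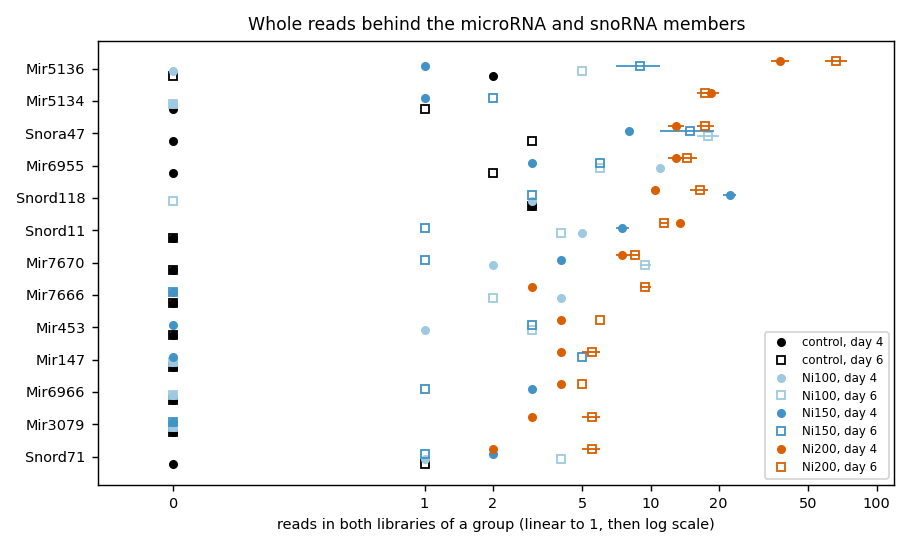
Reads summed over both libraries of a group (linear to 1, then log scale) for the 13 microRNA and snoRNA genes, by dose and day, with bars for the range that the 2 library depths allow. The 200 µM points reach 37 and 66 reads for Mir5136 and stay under 10 on both days for 7 genes.

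By position, 13 of the 92 genes (14.1%) overlap another gene on the same strand, and 12.4% of the other near-silent genes do. Apart from small RNA and histone genes the count was 3 of 73 (4.11%), namely H2-Q9, Cd27 and Spag6l. Within 5000 bases downstream of a same-strand gene with at least 1 RPKM lay 8 members (8.7%), against 2.9% of the other near-silent genes. These were Stac3, Cyp27b1, Ager, Scarf2, Mamstr, Tm6sf2, Prss33 and Snord118. The gene before Stac3, R3hdm2, had 16.9 and 17 RPKM in control cells and at 200 µM on day 4, and the one before Mamstr, Rasip1, had 1.74 and 2.64 RPKM. Reads running on from a neighbour were not tested. Groups of 3 or more members within 200 kb were the 3 H3 genes and Grin2d, Mamstr and Ntn5 at chr7:45639977-45866681.

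At the edge of the rule, Rbm46, Dcdc2a and Marchf1 were the last genes inside, with lowest values at 200 µM of 0.301, 0.311 and 0.314 RPKM. Eya2, Galr2 and Tmem200b lay just outside, with 0.299, 0.297 and 0.296 RPKM. Dcdc2a, just inside, had 0.0434 and 0.499 RPKM in control cells and at 200 µM on day 6 and was called there in the authors' deposited table.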

How the data were processed

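The authors deposited 6 tables, 1 per dose and day, with 26239 genes each. Per the file headers the values of a gene are 2 RPKM (control and nickel), the log2 fold change between them, and p-values before and after adjustment. STAR, DESeq2 and the build GRCm38 are named in the submitters' processing notes, and no version or setting is stated there. The deposited RPKM are 1 value per group, so no new test per gene was made and the authors' p-values were read at 0.05. A gene with a fold change of 0 and the maximal p-value counted as untested. The authors' subset sheets, 18 in all, hold rows of the same tables and were not used. Implied standard errors are the log2 fold change over the normal quantile of p. Reads were estimated from RPKM, exonic length and the depths recovered from RPKM steps (within 0.6%), in Python 3.11.15 with pandas 2.3.3 and scipy 1.17.1; depth recovery and the choice of members were tested on simulated data. At 100 µM on day 4 both libraries were given the 1 depth found. Named genes followed a rule of level, calls, lists, dose pattern and position, and the text gives a part of them. The members, classes and 16 gene lists were chosen with earlier results of these data known. Alternatives changed the caps, floors, fold, p threshold, pseudocount and CpG limit. The values of a member withheld from the text and figures are not reported here, and counts include it.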

Additional observations from a re-analysis of the deposited data

How the results depend on the processing

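Of 102 alternative values, 40 were median log2 fold changes at 100 and 150 µM, and all of these stayed positive. They use the control values that chose the genes. The other alternatives were counts and shares, which have no sign to reverse. The number of genes, 92, was 56 with a control cap of 0.2 RPKM, 38 with a floor of 0.5, 52 at 3-fold, 259 on day 4 alone and 285 on day 6 alone. The share called higher at 100 µM on day 4, 1.09%, was 0 with the cap of 0.2 and at an adjusted p under 0.01, and 2.63% with the floor of 0.5; on day 6, 5.43% became 2.17% at that p and 10.5% with that floor. At an adjusted p under 0.01 the share was 3.26% at 150 µM on day 4, and 4.35% and 23.9% at 200 µM on days 4 and 6. At an adjusted p under 0.1 it was 26.1% at 200 µM on day 4. Without small RNA and histone genes, an alternative chosen after seeing the data, it was 57.5% at 200 µM on day 6. With a pseudocount of 0.5 the median log2 ratio at 100 and 150 µM was 0.21 and 0.41 on day 4 and 0.32 and 0.34 on day 6. The share above 100 µM at 150 µM on day 6 was 45.7% with an excess of 1.2 times, and the CpG-rich share was 18.2% with the floor of 0.5. The cause was not tested. No paired analysis was possible because the files hold 1 value per group; a replicate block and leaving out a replicate were not run for the same reason. Depth limits the small RNA and histone genes most.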
